A study of Mus musculus with 12 samples.

Results

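The BCL2 family genes of apoptosis described here are 10 transcripts chosen by name from the deposited count table of mouse colonoids: the survival genes Bcl2l1 and Mcl1, the BCL2-like genes Bcl2l15 and Bcl2l14, the effectors Bax and Bak1, and the BH3-only genes Bid, Bcl2l11, Bbc3 and Pmaip1. They are 10 of 35869 gene symbols in the table, and all 10 were among the 13987 genes that passed the filter on low counts and were tested. The study measured polyadenylated RNA in C57BL/6 colonoids, which are hollow epithelial structures grown in gel from crypts of the mouse colon, in a medium with EGF and conditioned medium of L-WRN cells. There were 4 groups of 3 libraries: unstimulated colonoids, colonoids given mouse IL-22 at 1 ng/mL, mouse IL-1b at 100 ng/mL, or both, each for 12 h. All groups shared the strain and the medium. No age is given, and the origin of the replicates (same or different mice, same or different wells) is not stated. The p-values therefore rest on the spread between libraries, which may be technical.

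Proteins of the BCL2 family control the mitochondrial, or intrinsic, route to apoptosis. BAX and BAK form pores in the outer mitochondrial membrane, survival proteins such as BCL-XL (from Bcl2l1) and MCL1 hold them in check, and BH3-only proteins tip this balance by binding the survival proteins or the effectors. In the intestinal epithelium this pathway takes part in cell turnover and in the response to damage. IL-22 acts on epithelium through STAT3 and IL-1b through NF-kB, and survival genes of this family are among the textbook targets of both factors.

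Library totals lay between 4703902 and 5804033 counts, and levels are given as CPM, the usual normalised read count, with each library total adjusted by TMM. All 10 epithelial marker genes (such as Epcam, Krt8 and Cdh1) had counts in every library, with a summed level of 2777 to 3558 CPM. Of 7 leukocyte markers 6 had a count and Tyrobp was at 0. Their summed level was 1.45 to 1.71 CPM in unstimulated, 1.70 to 5.76 with IL-22, 9.65 to 65.2 with IL-1b and 1.01 to 9.23 CPM with both cytokines. Of the endothelial markers Pecam1 had 25 to 39 counts in unstimulated, 5 to 7 with IL-22, 26 to 49 with IL-1b and 4 to 21 with both, whereas Cdh5 and Kdr had at most 1 in any library. Markers of fibroblasts and smooth muscle summed to 0.20 to 4.04 CPM and those of enteric neurons and glia to 0.62 to 1.82 CPM, with Sox10 at 0. The part of these transcripts in the results below was not tested. In these bulk samples fewer cells of a type and less RNA per cell cannot be told apart.

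IL-22 changed 6 of the 10 genes. Bcl2l15, Pmaip1, Bcl2l1 and Bak1 rose, by 4.18-fold, 1.56-fold, 1.25-fold and 1.15-fold, and Bcl2l11 and Bbc3 fell. Calls are made by edgeR's quasi-likelihood test where the p adjusted over all tested genes (Benjamini-Hochberg) is under 0.05. In this comparison 11.9% of all tested genes were called higher and 10.6% lower. Scaled by total counts alone, 37.7% of the calls over all genes were higher, against 52.8% with TMM, and the same 6 of the 10 genes were called in the same directions. The median log2 fold change of the 10 genes was 0.06, against -0.00036 for all tested genes. With IL-1b alone none of the 10 was called, beside 0.0715% of all tested genes called higher and 0.0% lower. With both cytokines Bcl2l15, Bcl2l1 and Bak1 rose and Bcl2l11 fell against unstimulated colonoids (4 of 10, median 0.05, against 0.0026 for all genes). Of all tested genes 13.7% were called higher and 13.3% lower there. With total counts as the only scaling 39.8% of all calls were higher, against 50.8%, and the same 4 of the 10 genes were called.

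**Figure D1:**
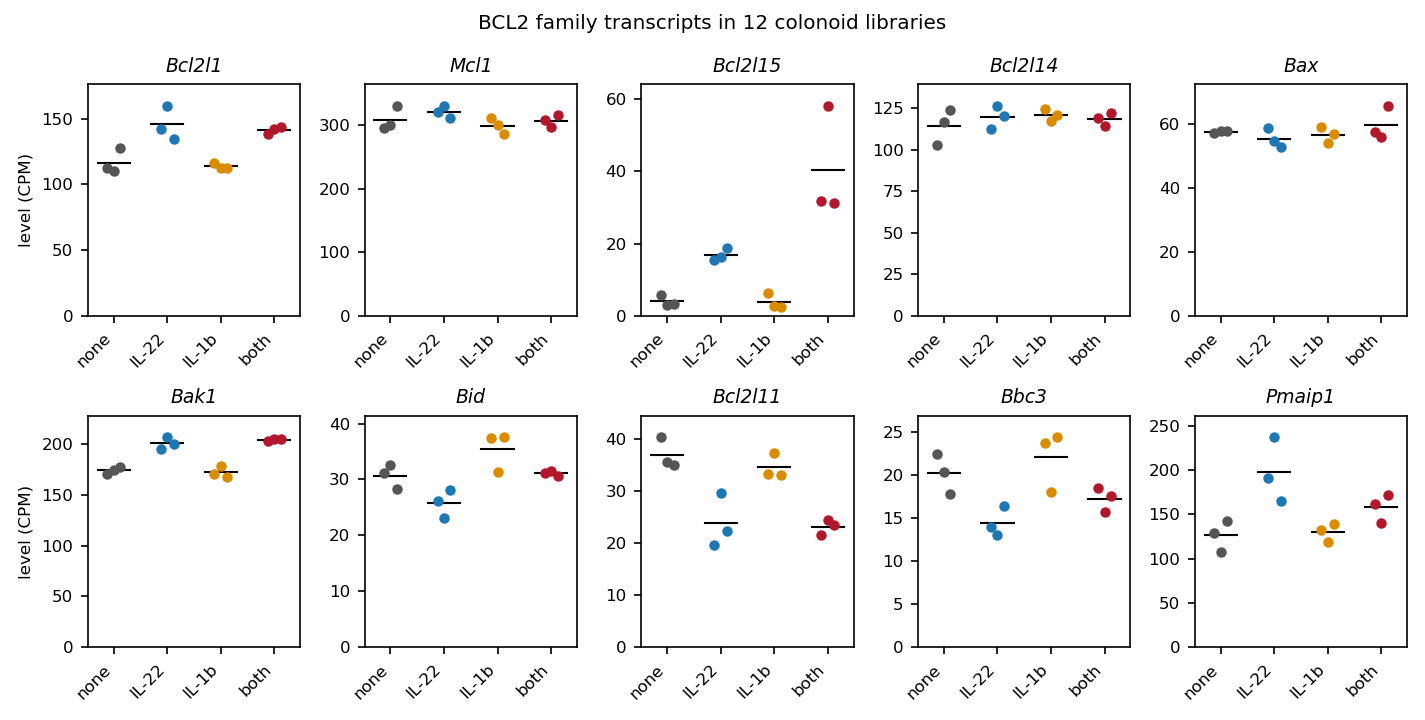
Level of each of the 10 BCL2 family transcripts in CPM (vertical axes, each from 0) in the 12 libraries, by group (none stands for unstimulated, both for IL-1b with IL-22). Points are libraries, with replicate 1 to the left, and bars are group means: Bcl2l15 lies between 2.3 and 6.2 CPM without IL-22 and between 15.5 and 58.2 CPM with it, while Mcl1 stays between 287 and 331 CPM.

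The stretches just upstream of the start of 4 genes are shown because their transcripts moved differently: Bcl2l15 had the largest rise, Bcl2l11 the largest fall among the 10, Bcl2l1 rose by less and Mcl1 was not called. The windows come from RefSeq on GRCm38.p6, which holds one or more for 9 of the 10 genes. Each line is written 5′ to 3′ along the gene, leaves out bases of annotated exons and, where a gene has several starts, shows one of them. The capitals in Mcl1 mark a match to the NF-kB letters described below.
Bcl2l15, chr3:103832446-103832600, plus strand: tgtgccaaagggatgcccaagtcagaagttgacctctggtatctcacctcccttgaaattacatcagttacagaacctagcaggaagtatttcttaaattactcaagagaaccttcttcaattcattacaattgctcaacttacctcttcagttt
Bcl2l11, chr2:128125788-128126037, plus strand: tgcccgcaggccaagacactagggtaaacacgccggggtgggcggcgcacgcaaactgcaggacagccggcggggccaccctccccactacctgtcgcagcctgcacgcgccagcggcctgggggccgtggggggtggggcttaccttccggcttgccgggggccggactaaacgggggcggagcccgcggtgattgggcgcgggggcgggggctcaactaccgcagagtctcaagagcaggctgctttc
Bcl2l1, chr2:152831729-152831978, minus strand: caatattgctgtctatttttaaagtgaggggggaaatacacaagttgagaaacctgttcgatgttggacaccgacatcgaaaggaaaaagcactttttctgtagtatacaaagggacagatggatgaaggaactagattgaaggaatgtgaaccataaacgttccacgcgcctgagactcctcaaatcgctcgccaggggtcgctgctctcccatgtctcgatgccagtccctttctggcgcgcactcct
Mcl1, chr3:95658471-95658720, plus strand: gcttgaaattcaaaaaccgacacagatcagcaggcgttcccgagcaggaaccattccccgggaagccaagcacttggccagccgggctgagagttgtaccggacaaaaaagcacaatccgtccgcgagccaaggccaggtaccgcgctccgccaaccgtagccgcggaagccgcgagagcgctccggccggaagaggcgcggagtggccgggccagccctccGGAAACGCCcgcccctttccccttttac

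Both strands of all windows were searched for 2 patterns over the 250 bases before each start. The STAT pattern TTCNNNGAA was found in 7.02% of all 32851 windows and in none of the windows of the 9 genes. The NF-kB pattern GGNNNTTCC was found in 15.7% of all windows. It matched in Mcl1 (read as GGAAACGCC along the gene, its first base 28 bases before the start) and in Bak1, each with 1 window. Of the 3 windows of Bcl2l1, 1 that is not shown here held 3 matches, and the one shown held none. Bbc3 had a match in 2 of its 3 windows. The share of 15.7% is over windows and not over genes. A match describes letters and not a binding site, and windows without one say nothing about the factors.

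The survival gene Bcl2l1 (chromosome 2, 152780668 to 152831728 on mm10, minus strand) encodes BCL-XL and, by alternative splicing, a shorter form that promotes death, which counts per gene cannot separate. Its level was 112.1, 109.8 and 127.6 CPM in the unstimulated libraries and 142.3, 159.9 and 134.7 CPM with IL-22. It was 116.1, 112.7 and 112.4 CPM with IL-1b and 138.2, 142.3 and 143.3 CPM with both. All 6 libraries that received IL-22 were above all 6 that did not. How many of all tested genes had groups that separate without overlap was not counted, here or for the genes below. The log2 fold change was 0.32 ± 0.07 (SE, n = 3 per group; edgeR adjusted p = 0.00514) with IL-22, 0.28 ± 0.07 (0.00988) with both against unstimulated and 0.31 ± 0.07 (0.00517) with both against IL-1b. The call with both against unstimulated was lost without unstimulated replicate 2 (0.24, edgeR adjusted p = 0.0509) and without the first libraries of unstimulated and IL-1b together (0.25, 0.0558). With IL-1b alone the log2 fold change stood at -0.03 ± 0.07 (edgeR adjusted p = 0.892).

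Mcl1 (chromosome 3, 95658788 to 95663176, plus strand), which encodes a short-lived survival protein, was the most abundant of the 10 per exon length. Its level was 295.8, 300.1 and 330.0 CPM in unstimulated, 321.7, 331.2 and 310.8 with IL-22, 311.1, 300.1 and 287.0 with IL-1b, and 307.9, 297.4 and 316.7 CPM with both. The ranges of all groups overlapped that of the unstimulated libraries. Log2 fold changes against unstimulated stood at 0.06 ± 0.05 for IL-22 (edgeR adjusted p = 0.486), -0.04 ± 0.05 for IL-1b (0.794) and -0.01 ± 0.05 for the combination (0.945).

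Bcl2l15 (chromosome 3, 103832601 to 103854618, plus strand) encodes a small BCL2-like protein, also known as BFK, that is found mainly in the digestive tract and can weakly promote apoptosis. It had the largest fold change of the 10 in both comparisons in which it was called against unstimulated. Unstimulated libraries had 5.9, 2.9 and 3.2 CPM (33, 16 and 17 counts), and libraries with IL-22 had 15.5, 16.2 and 18.9 CPM (75, 73 and 100 counts). Levels were 6.2, 2.8 and 2.3 CPM with IL-1b (34, 15 and 14 counts) and 31.9, 58.2 and 31.1 CPM with both (158, 297 and 145 counts). The lowest library with both cytokines lay above the highest with IL-22 alone, which in turn shared no value with the groups that had no IL-22. Bcl2l15 rose by 2.06 ± 0.36 on the log2 scale with IL-22 (SE, n = 3; edgeR adjusted p = 0.00104) and by 3.32 ± 0.33, or 10.0-fold, with both (edgeR adjusted p = 9.48e-06). Against IL-1b alone the rise with both was 3.42 ± 0.34 (edgeR adjusted p = 9.56e-06).

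IL-1b alone left Bcl2l15 at a log2 fold change of -0.09 ± 0.44 (edgeR adjusted p = 0.952), an uncertain value at 14 to 34 counts a library. With both cytokines the level was 2.40-fold that with IL-22 alone, a log2 difference of 1.26 ± 0.28 that missed the threshold in the quasi-likelihood test (adjusted p = 0.107). DESeq2 called it (adjusted p = 0.0160), as did the quasi-likelihood test with no filter beyond 1 count (adjusted p = 1.2e-05). Without replicate 2 of the group with both, which had 58.2 CPM where its other libraries had 31.9 and 31.1, the difference was 0.91 (edgeR adjusted p = 0.272). The interaction, that is how far the effect of both departs from the sum of the single effects on the log2 scale, stood at 1.36 ± 0.52 for Bcl2l15 (unadjusted p = 0.0213, edgeR adjusted p = 0.924). In unstimulated and IL-1b colonoids replicate 1 was the highest library for this gene. The leukocyte markers Ptprc and Laptm5 had 104 and 130 counts in IL-1b replicate 1, but 0 and 5 in unstimulated replicate 1. The part of leukocyte transcripts in the level of Bcl2l15 was not tested. Bcl2l15 shares 569 exon bases with the same-strand gene model Gm43064, which is no row of the table, so reads of that model could be counted with it or lost.

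Bcl2l14 (chromosome 6, 134396318 to 134438736, plus strand) encodes BCL-G, a relative with a BH3 domain that is expressed in gut epithelium. Its level was 102.5, 116.8 and 124.0 CPM in unstimulated, 112.3, 126.5 and 120.1 with IL-22, 124.2, 117.2 and 120.9 with IL-1b, and 119.0, 114.3 and 121.9 CPM with both. All groups overlapped, in contrast to Bcl2l15. The log2 fold changes against unstimulated stood at 0.06 ± 0.07, 0.08 ± 0.07 and 0.05 ± 0.07 (edgeR adjusted p = 0.564, 0.720 and 0.639).

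**Figure D2:**
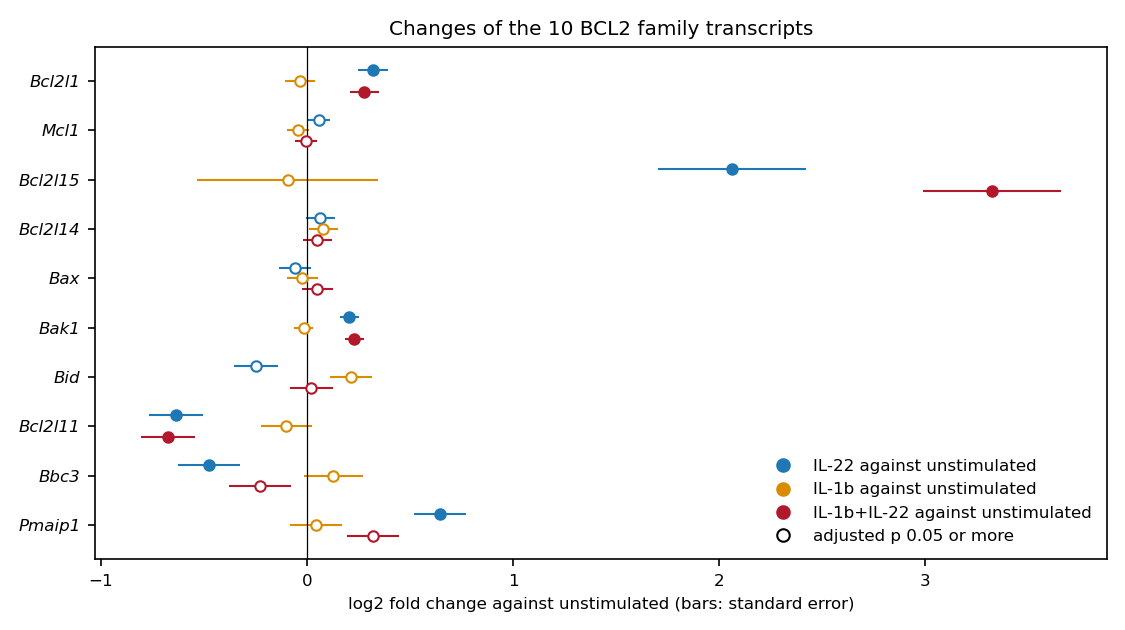
Log2 fold changes against unstimulated colonoids (horizontal axis) of the 10 genes with IL-22, IL-1b or both, with standard errors as bars and 3 libraries per group. Filled points were called by edgeR's quasi-likelihood test at an adjusted p under 0.05: Bcl2l15 lies at 2.06 with IL-22 and 3.32 with both, Bcl2l11 at -0.64 and -0.67, and no point of IL-1b is filled.

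Of the effector genes, Bak1 was called with IL-22 and with both cytokines, and Bax was not called in these comparisons. Bax (chromosome 7, 45461697 to 45466898, minus strand), whose protein moves to mitochondria when activated, had 57.2, 57.7 and 57.7 CPM in unstimulated, 58.6, 54.5 and 52.6 with IL-22, 59.0, 54.0 and 56.7 with IL-1b, and 57.5, 55.7 and 65.6 CPM with both. These ranges overlapped, and the log2 fold changes stood at -0.06 ± 0.08, -0.02 ± 0.08 and 0.05 ± 0.08 (edgeR adjusted p = 0.638, 0.934 and 0.658).

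Bak1 (chromosome 17, 27019810 to 27029009, minus strand), whose protein sits in the outer mitochondrial membrane, had 170.5, 174.0 and 177.7 CPM in unstimulated libraries and 195.1, 206.9 and 199.9 CPM with IL-22. It had 170.4, 178.5 and 167.8 CPM with IL-1b and 202.6, 205.2 and 204.7 CPM with both. As for Bcl2l1, all 6 libraries with IL-22 lay above all 6 without. Bak1 rose by 0.20 ± 0.05 on the log2 scale with IL-22 (edgeR adjusted p = 0.00621), by 0.23 ± 0.05 with both (0.00233) and by 0.25 ± 0.05 with both against IL-1b (0.00165), and stood at -0.02 ± 0.05 with IL-1b (0.928). Whether the fold change of Bak1 differed from that of Bax was not tested.

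The size of the Bak1 change depended on a trend across all genes. In libraries with IL-22, genes with many counts per exon base had higher fold changes than genes with few, and Bak1 and Mcl1 lay at the 96.75th and 97.95th percentile of count per exon base (0.404 and 0.470). With that trend removed the log2 fold change of Bak1 was 0.09 with IL-22 (edgeR adjusted p = 0.140), so that the call was lost, and 0.12 and 0.13 with both against unstimulated and IL-1b (0.0448 and 0.0315). Mcl1 then stood at -0.06 with IL-22 (0.285) and was called lower with both, at -0.12 (edgeR adjusted p = 0.0375). Replicates of Bak1 did not vary beyond counting noise (chi-square per degree of freedom 0.568, with 8 degrees of freedom), and the value for Mcl1 was higher (2.98). Among the other members this spread was largest for Pmaip1 (14.3) and Bcl2l15 (10.1).

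**Figure D3:**
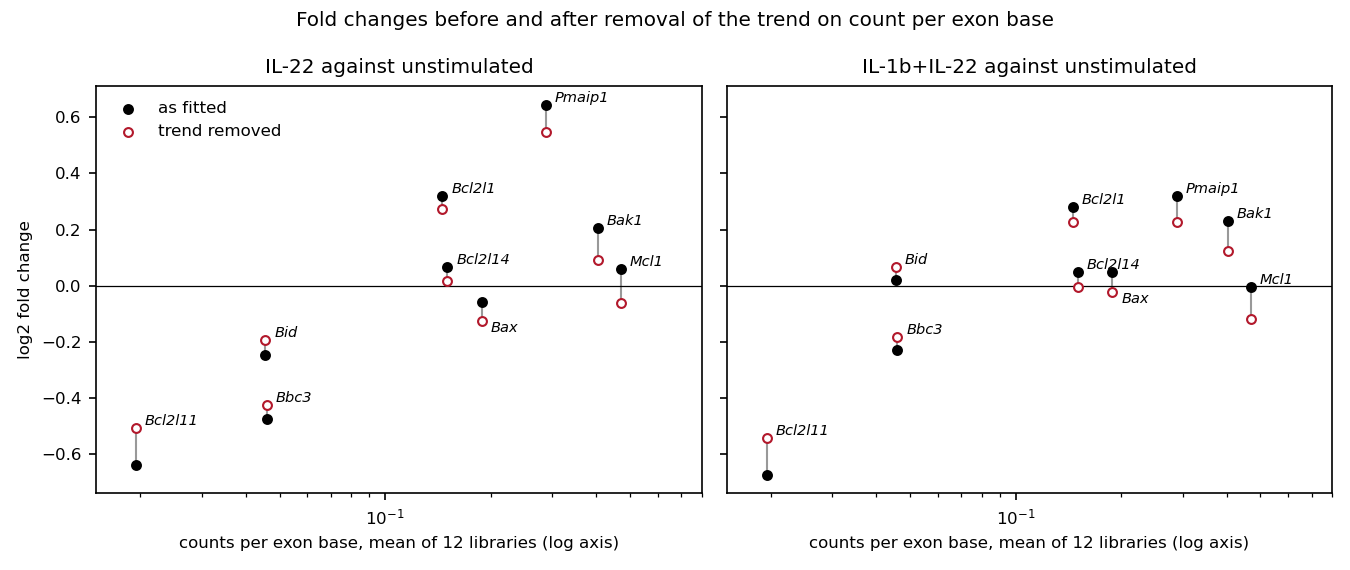
Log2 fold change (vertical axis) against mean counts per exon base in the 12 libraries (log axis) for 9 of the 10 genes, without Bcl2l15, whose change is off the scale. Filled points are values as fitted and open points those after removal of the trend: Bak1 drops from 0.20 to 0.09 with IL-22, and Bcl2l11, the gene with the fewest counts per base, moves from -0.64 to -0.51.

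The 4 BH3-only genes did not move as a group. With IL-22 Pmaip1 rose, Bcl2l11 and Bbc3 fell and Bid did not pass the test. Bcl2l11 (chromosome 2, 128126038 to 128162547, plus strand) encodes BIM, which binds every main survival protein of the family. It had 40.4, 35.6 and 35.1 CPM in unstimulated libraries and 19.6, 29.7 and 22.4 CPM with IL-22. It had 33.3, 37.4 and 33.1 CPM with IL-1b and 21.6, 24.5 and 23.6 CPM with both. The highest library with IL-22 was below the lowest without it. Bcl2l11 fell by 0.64 ± 0.13 on the log2 scale with IL-22 (edgeR adjusted p = 0.00335), by 0.67 ± 0.13 with both (0.00183) and by 0.57 ± 0.13 with both against IL-1b (0.00579). These 3 calls held in all alternatives run, the removal of the trend included. With IL-1b alone it stood at -0.10 ± 0.12 (edgeR adjusted p = 0.795).

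Bbc3 (chromosome 7, 16308393 to 16318205, plus strand) encodes PUMA, a p53 target. Its level was 22.5, 20.4 and 17.8 CPM in unstimulated libraries, 14.0, 13.1 and 16.4 with IL-22, 23.7, 18.1 and 24.4 with IL-1b, and 18.6, 15.7 and 17.6 CPM with both. Libraries with IL-22 alone lay below the unstimulated ones, and those with both overlapped them. Bbc3 fell by 0.48 ± 0.15 with IL-22 (edgeR adjusted p = 0.0368), the least stable of the 6 calls. The call was lost in DESeq2 (adjusted p = 0.0771), when only the 6 libraries compared were fitted (0.0630), with the trend removed (0.0573), and on leaving out replicate 1 or 2 of either the unstimulated or the IL-22 group (log2 fold change -0.47 to -0.39, edgeR adjusted p 0.0952 to 0.134). The call was also lost without the first libraries of unstimulated and IL-1b together (-0.39, edgeR adjusted p = 0.155). Bbc3 stood at 0.13 ± 0.14 with IL-1b and -0.23 ± 0.15 with both (edgeR adjusted p = 0.775 and 0.271). Against IL-1b, both cytokines left it at -0.36 ± 0.15 (0.0892), a value that was called without IL-1b replicate 2 (-0.49, edgeR adjusted p = 0.0320).

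Pmaip1 (chromosome 18, 66458533 to 66465565, plus strand) encodes NOXA, which binds MCL1 above all. It had 129.0, 107.8 and 142.0 CPM in unstimulated libraries and 190.8, 237.2 and 165.6 CPM with IL-22. It had 132.5, 119.1 and 138.5 CPM with IL-1b and 161.2, 140.7 and 171.4 CPM with both. Libraries with IL-22 alone were above all unstimulated ones, whereas the lowest library with both fell within the unstimulated range. Pmaip1 rose by 0.65 ± 0.12 with IL-22 (edgeR adjusted p = 0.00213). With both it stood at 0.32 ± 0.13 (0.0725), a value called without a filter (0.00292) and when unstimulated replicate 3, IL-22 replicate 2 or 3, or replicate 2 of both cytokines was left out (edgeR adjusted p 0.0393 to 0.0456). Against IL-22 alone, both cytokines gave -0.32 ± 0.12 (edgeR adjusted p = 0.390; 0.0288 with no filter), and the interaction was -0.37 ± 0.18 (unadjusted p = 0.0553, edgeR adjusted p = 0.973). A weaker rise of Pmaip1 with both than with IL-22 was thus not shown by the quasi-likelihood test with its filter. With both against IL-1b it stood at 0.28 ± 0.13 (0.120; 0.0136 with no filter and 0.0339 with only the 6 libraries compared), and with IL-1b alone at 0.04 ± 0.13 (edgeR adjusted p = 0.925).

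Bid (chromosome 6, 120891930 to 120916853, minus strand) encodes the BH3-only protein that caspase-8 cleaves, linking death receptors to mitochondria. Its level was 31.2, 32.6 and 28.3 CPM in unstimulated, 26.2, 23.0 and 28.1 with IL-22, 37.5, 31.4 and 37.6 with IL-1b, and 31.1, 31.6 and 30.7 CPM with both. The libraries with IL-22 alone lay just below the unstimulated ones and did not overlap them. The log2 fold change stood at -0.25 ± 0.11 for IL-22, 0.21 ± 0.10 for IL-1b and 0.02 ± 0.10 for the combination, none of them called (edgeR adjusted p = 0.115, 0.529 and 0.907). With both against IL-22 it was 0.27 ± 0.11 (edgeR adjusted p = 0.416). Bid shares 628 exon bases with Bcl2l13 on the opposite strand, which had 2801 summed counts in unstimulated libraries to 503 for Bid. The strand setting of the counting is not given in the sources used here, so the count of Bid is uncertain. Opposite-strand models also share bases with Bcl2l14 (577) and with Bak1 (437 and 177, from Ggnbp1, which had 37 summed counts in unstimulated libraries), and a same-strand model, Gm45808, shares 192 with Bax.

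IL-1b on its own left all 10 genes below the threshold: 0 were called by edgeR's quasi-likelihood test, 0 had an unadjusted p under 0.05 and DESeq2 called 0. In this comparison 0.0715% of all tested genes were called higher and 0.0% lower by edgeR. Of all 13987 tested genes, 1338 had an unadjusted p under 0.05 and DESeq2 called 32. The 10 log2 fold changes lay between -0.10 and 0.21, with a median of -0.02 against -0.01 for all tested genes. Adding IL-1b to IL-22 likewise gave 0 calls among the 10 by edgeR (0.0643% of all tested genes higher, 0.0143% lower). There, Bcl2l15, Pmaip1 and Bid had an unadjusted p under 0.05, as did 1440 of all 13987 tested genes. DESeq2 called Bcl2l15, among 87 of the 13987. The test with no filter called Bcl2l15 and Pmaip1, among 336 of 24371 genes.

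Adding IL-22 to IL-1b changed 4 of the 10 genes, with Bcl2l15, Bcl2l1 and Bak1 higher and Bcl2l11 lower (13.3% and 13.0% of all tested genes were called higher and lower; median 0.06 against 0.00065). This comparison shares the libraries with both cytokines with the one against unstimulated, so their like values are not independent. With total counts as the only scaling 36.8% of all calls were higher, against 50.5%, and the same 4 genes were called. The interaction was called for 0 of the 10 genes by edgeR and by DESeq2 and ranged from -0.37 to 1.36. It was called by edgeR for 0.0% of all tested genes in either direction, and by DESeq2 for 4 of 13987. Among the 10 only Bcl2l15 had an unadjusted p under 0.05, beside 705 of the 13987.

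Levels can be set between genes once counts are divided by exon length. In unstimulated colonoids Mcl1 was highest at 90.3 ± 5.45 CPM per kb of exon (SD, n = 3), followed by Bak1 at 72.3 ± 1.49, Pmaip1 at 46.2 ± 6.32 and Bax at 36.5 ± 0.17. Next came Bcl2l14 at 28.0 ± 2.68 and Bcl2l1 at 25.4 ± 2.11, then Bbc3 at 9.52 ± 1.09 and Bid at 8.64 ± 0.62 CPM per kb. The last were Bcl2l11 at 4.62 ± 0.37 and Bcl2l15 at 1.48 ± 0.60 CPM per kb. The neighbours Bcl2l14 and Bcl2l1, and Bbc3 and Bid, overlapped, and the other neighbours did not. With both cytokines Bcl2l15 reached 14.9 ± 5.69 CPM per kb, above Bid at 8.76 ± 0.12, Bbc3 at 8.14 ± 0.69 and Bcl2l11 at 2.89 ± 0.19, while Bcl2l1 stood at 30.8 ± 0.59. Exon length counts the bases of all annotated isoforms, so a gene with many unused exons is set too low.

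The pattern of the 3 genes with the largest called changes was compared with 10969 genes of at least 5 CPM over the 12 libraries, as a description. For Bcl2l15 the most similar were Rhof (Pearson r = 0.971), Pik3cb (0.965) and Kcnk6 (0.960). Rhof had 69.4 ± 5.10 CPM in unstimulated, 94.6 ± 3.44 with IL-22, 71.2 ± 7.86 with IL-1b and 107 ± 9.83 CPM with both (SD, n = 3), a smaller ratio than that of Bcl2l15. For Bcl2l11 they were Hes1 (0.962), a Notch target, Cish (0.960), a cytokine feedback inhibitor, and Scamp1 (0.946). For Pmaip1 they were Ept1 (0.965), Skil (0.962) and Tapt1 (0.958). These libraries share groups, and 2 groups with high levels suffice for a high r.

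The rest of the intrinsic pathway was followed in 40 other genes, of which 36 were tested (Bcl2l10, Bcl2a1a, Bcl2a1b and Hrk had too few counts). The list also holds genes that are linked to the pathway from outside, such as Casp8 of the death receptor route and Bnip3. With IL-22 10 of the 36 rose and 0 fell by edgeR, where 11.9% of all tested genes were called higher and 10.6% lower (median log2 fold change 0.11, against -0.00036 for all tested genes). An unadjusted p under 0.05, in either direction, was reached by 15 of the 36 and by 4857 of all 13987 tested genes. With both cytokines 11 rose and 2 fell against unstimulated (median 0.11), beside 13.7% and 13.3% of all tested genes called higher and lower. With both against IL-1b 10 rose and 0 fell by edgeR (median 0.04), beside 13.3% and 13.0%, and 15 of the 36 and 5316 of the 13987 had an unadjusted p under 0.05. With IL-1b alone none was called by edgeR, and 3 of the 36 had an unadjusted p under 0.05, beside 1338 of the 13987. DESeq2 and the test with no filter called 1 each, beside 32 of 13987 and 212 of 24371 genes. Adding IL-1b to IL-22 gave 0 calls by edgeR. There 3 of the 36 and 1440 of the 13987 had an unadjusted p under 0.05. The interaction gave 0 calls as well, with 1 of the 36 and 705 of the 13987 at an unadjusted p under 0.05.

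Among the machinery downstream of the BCL2 family, Apaf1, the scaffold of the apoptosome that activates caspase-9, was the clearest. It had 77.2, 73.1 and 74.9 CPM in unstimulated libraries, 118, 134 and 132 with IL-22, 71.5, 71.1 and 73.7 with IL-1b and 137, 143 and 131 CPM with both. Every library with IL-22 lay above every library without. Apaf1 rose by 0.77 ± 0.06 on the log2 scale with IL-22 and by 0.87 ± 0.06 with both (edgeR adjusted p = 2.37e-06 and 4.66e-07), and by 0.93 ± 0.06 with both against IL-1b (3.11e-07). Casp8, the caspase that cleaves BID and so acts upstream of it, had 132, 131 and 156 CPM in unstimulated and 199, 215 and 189 CPM with IL-22. It rose by 0.52 ± 0.07 with IL-22 and by 0.52 ± 0.07 with both (edgeR adjusted p = 0.000184 and 0.000145).

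**Figure D4:**
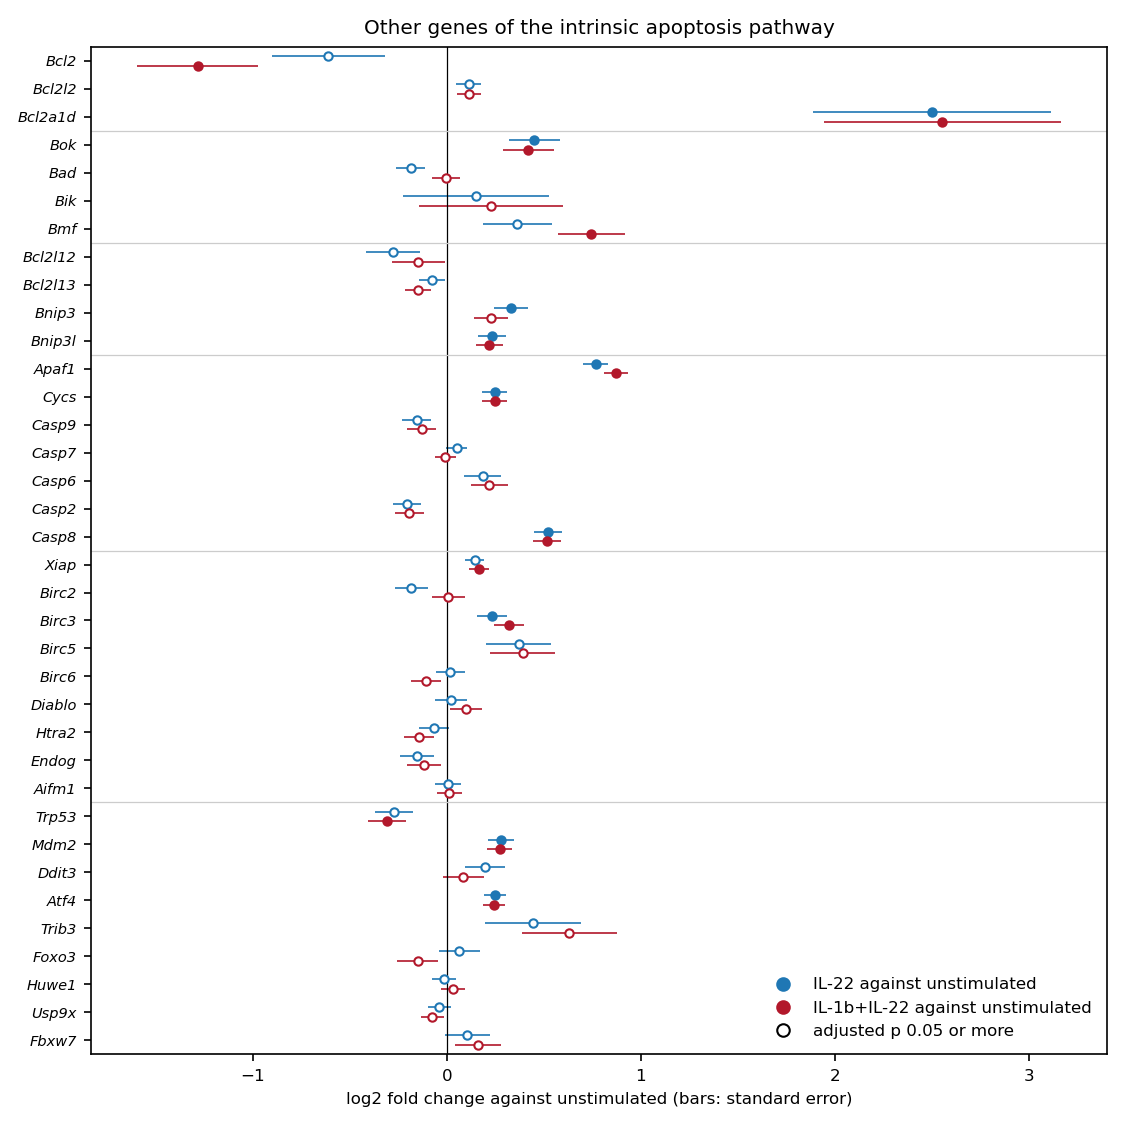
Log2 fold changes against unstimulated colonoids (horizontal axis) of the 36 other tested genes in or linked to the intrinsic pathway, with IL-22 or with both cytokines. Bars are standard errors with 3 libraries per group, filled points were called, and grey lines part the gene classes: Apaf1 lies at 0.77 and 0.87, and Bcl2 is called lower with both, at -1.28.

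Further BCL2 family genes that are not among the 10 also moved. Bcl2, the founding survival gene, had 10.7, 7.27 and 6.45 CPM in unstimulated libraries, 6.81, 5.09 and 4.15 with IL-22, 4.04, 7.15 and 5.16 with IL-1b, and 2.42, 2.94 and 4.72 CPM with both. Only the group with both shared no value with unstimulated libraries. It had 12, 15 and 22 counts of Bcl2, against 60, 40 and 34 in unstimulated libraries. Bcl2 fell by 1.28 ± 0.31 on the log2 scale with both (edgeR adjusted p = 0.00740), and stood at -0.61 ± 0.29 with IL-22 (0.151) and -0.58 ± 0.28 with IL-1b (0.530). Bcl2l2, which encodes the survival protein BCL-W, stood at 0.11 ± 0.06 for IL-22, 0.04 ± 0.06 for IL-1b and 0.11 ± 0.06 for the combination, none called. Both Bcl2 and Bcl2l2 share exon bases with another gene model, so their counts are uncertain. Bcl2a1d, a survival gene best known from leukocytes, had 3, 1 and 1 counts in unstimulated libraries, 13, 4 and 10 with IL-22, 5, 2 and 2 with IL-1b and 12, 6 and 10 counts with both. It was called higher with IL-22 at 2.50 ± 0.62 and with both at 2.55 ± 0.61 (edgeR adjusted p = 0.00982 and 0.00686). Counts this few, and near-identical copies of the gene, make these values uncertain. In IL-22 replicate 2, which had the most Ptprc counts of its group (9), Bcl2a1d had 4 counts, against 13 and 10 in the others. In IL-1b replicate 1, which had 104 Ptprc counts, Bcl2a1d had 5 counts, against 2 and 2 in the others. The part of leukocyte transcripts in the change of Bcl2a1d was not tested.

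Bok, a BAX-like effector, rose by 0.45 ± 0.13 with IL-22 and 0.42 ± 0.13 with both (edgeR adjusted p = 0.0256 and 0.0304), and by 0.50 ± 0.13 with both against IL-1b (0.0132). The first call was lost without unstimulated replicate 2 or IL-22 replicate 1 (0.118 to 0.122), the next without unstimulated replicate 2 or replicate 1 or 3 of both (0.0621 to 0.131), and the last without IL-1b replicate 3 (0.0581). The call of Bok with IL-22 was also lost in a fit of the 6 libraries compared (0.0753), and that with both under scaling by total counts (0.0513) or with the density trend removed (0.0588). Bmf, a BH3-only gene, rose by 0.74 ± 0.17 with both (edgeR adjusted p = 0.00566) and stood at 0.36 ± 0.18 with IL-22 (0.161). As with Bcl2l15, its highest library was replicate 2 of both cytokines, at 77.03 CPM against 51.7 and 48.5 CPM in the other two. Without that library the rise of Bmf with both was 0.51, still called. The BH3-only genes Bad and Bik were not called with IL-22 (-0.19 ± 0.07 and 0.15 ± 0.38, edgeR adjusted p = 0.0866 and 0.817) or with both (-0.0044 ± 0.07 and 0.23 ± 0.37, 0.971 and 0.685).

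Of the remaining genes named by the rule, Mdm2, which encodes the ligase for p53, rose by 0.28 ± 0.07 with IL-22 and 0.27 ± 0.07 with both (edgeR adjusted p = 0.00713 and 0.00665). Trp53, the p53 gene itself, fell by 0.31 ± 0.10 with both (edgeR adjusted p = 0.0307), a call lost in 5 of 12 fits that left out 1 library (any unstimulated one, or replicate 1 or 2 of both; adjusted p 0.0579 to 0.110). Birc3, an inhibitor of apoptosis protein gene, had 117 ± 13.0 CPM in unstimulated libraries, 137 ± 3.46 with IL-22, 150.3 ± 11.1 with IL-1b and 146 ± 4.35 CPM with both (SD, n = 3). It rose by 0.32 ± 0.08 with both and by 0.23 ± 0.08 with IL-22 (edgeR adjusted p = 0.00680 and 0.0425), the second call being lost in 9 of 12 fits that left out 1 library (adjusted p 0.0502 to 0.166; kept without unstimulated replicate 3, IL-1b replicate 2 or replicate 2 of both). With IL-1b alone Birc3 stood at 0.36 ± 0.08, a larger value than the 0.23 with IL-22. It did not pass (edgeR unadjusted p = 0.000274, adjusted p = 0.156), in a comparison with few calls over all genes. Its level was 157.7, 137.5 and 155.7 CPM with IL-1b, against 105.3, 114.6 and 131.0 CPM in unstimulated libraries. Bnip3, a mitophagy receptor gene, rose by 0.33 ± 0.09 with IL-22 (edgeR adjusted p = 0.0158), a call lost on leaving out replicate 1 or 2 of the unstimulated group or replicate 2 of the IL-22 group (0.0577 to 0.0798). With both against IL-1b, Bcl2a1d rose by 1.78 ± 0.54, Trib3, a stress-induced pseudokinase gene, by 0.88 ± 0.25, Bmf by 0.57 ± 0.17 and Birc5, the survivin gene, by 0.50 ± 0.17 (edgeR adjusted p = 0.0260, 0.0178, 0.0234 and 0.0424). Each of these 4 calls was lost in some fits that left out 1 library. For Bcl2a1d these were IL-1b replicates 2 and 3 and replicates 1 and 3 of both (0.0774 to 0.111), and for Bmf IL-1b replicates 2 and 3 and replicate 2 of both (0.0627 to 0.130). For Birc5 they were unstimulated replicate 2, IL-22 replicate 2, every IL-1b library and replicates 1 and 3 of both (0.0509 to 0.156), and for Trib3 IL-1b replicates 1 and 2 and replicate 2 of both (0.0536 to 0.0988). Trib3 was at 0.46 without replicate 2 of both, where it stood at 62.9 CPM against 31.9 and 31.8 CPM in the other libraries of that group.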

How the data were processed

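Polyadenylated RNA of mouse colonoids was analysed as raw integer counts by gene symbol, as deposited. Per the submitters' processing notes the authors used the mm10 build. The libraries were made with a strand-specific kit per the labels. Not given in the sources used here are the aligner, counter, annotation and counting strand.

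Genes were filtered with filterByExpr and scaled by TMM in edgeR 4.0.16 (R 4.3.3), which left 13987 of 35869 symbols and removed 21882, with TMM factors from 0.957 to 1.04. The quasi-likelihood test was run on all 12 libraries with 1 mean per group (8 residual degrees of freedom), after a test on simulated data. Standard errors were taken from the fold change and its F statistic (size of the log2 value divided by the root of F) and are approximate. A level of 3 counts stands for 0.499 to 0.665 CPM in a library, which covers counting error only. Within each group replicates differed beyond counting noise over genes with few counts per exon base (chi-square over its degrees of freedom 1.73 to 3.86 by pair). Each library was therefore counted as 1 sample. For single genes the value differed, and it was 0.568 for Bak1 and 0.935 for Bax over all groups.

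The 10 genes and the lists were chosen with earlier results of these data known. All 10 are named in each comparison. Of the other 40 genes (a further listed one is not reported here), the rule named up to 6 called ones per direction and comparison, and Bcl2, Bcl2l2, Bok, Bad, Bik and Bmf. Positions and exon lengths are from GENCODE M21 (26762 symbols matched directly, 514 through a synonym, 8593 not). Alternatives were DESeq2 1.42.0, no filter beyond 1 count, a replicate block, scaling by total counts only, a fit of the 6 libraries compared, each library left out, replicate 1 of unstimulated and of IL-1b left out together, and a lowess fit (span 0.3) of fold change on count per exon base taken off. Protein sequences were not used here.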

Additional observations from a re-analysis of the deposited data

How the results depend on the processing

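Of the 10 genes, 5 or 6 were called with IL-22 when any 1 library was left out. With both, 3 to 5 were called against unstimulated and 4 or 5 against IL-1b. Over all tested genes (14155 to 14232 in these fits) the calls lay between 1992 and 3350 with IL-22. They lay between 2648 and 4055 with both against unstimulated and between 2567 and 3843 with both against IL-1b. With the trend on exon density (count per exon base) taken off, 4 of the 10 were called with IL-22 and 5 with both. Beside them 2792 and 3512 of all 13987 genes were called. For both against IL-22 the count of 0 among the 10 became 1 in DESeq2 and 2 with no filter beyond 1 count. In these 2 settings 87 of 13987 and 336 of 24371 genes were called. The 10 other pathway genes called with IL-22 became 6 to 10 with 1 library left out (6 without unstimulated replicate 2, a fit with 1992 calls over all genes). Their count of 0 with IL-1b became 1 in DESeq2 and 1 with no filter, and 0 to 1 with 1 library left out (1 without unstimulated replicate 3). Over all genes these settings gave 32, 212 and 9 to 28 calls. The 10 calls of other pathway genes with both against IL-1b became 6 to 11. They were 6 without IL-1b replicate 2 or replicate 3, fits with 2974 and 2567 calls over all genes. The cause of these shifts was not tested.

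Changes of sign were found among uncalled changes. With the trend removed, Mcl1 with IL-22 was -0.063, and with both Bcl2l14 was -0.0053 and Bax -0.024. With no filter Mcl1 with both was 0.0074. With total counts as the only scaling Bak1 with IL-1b was 0.0016 and Bid with both -0.020. Without the first libraries of unstimulated and IL-1b, Bcl2l14 was -0.0081 for IL-22, -0.0092 for IL-1b and -0.025 for the combination, and Bcl2l11 with IL-1b was 0.00015. With 1 library left out, the changes with IL-1b ranged from -0.068 to 0.039 for Bcl2l1, -0.067 to 0.010 for Mcl1, -0.64 to 0.30 for Bcl2l15, -0.047 to 0.017 for Bax, -0.033 to 0.0048 for Bak1 and -0.051 to 0.14 for Pmaip1. With IL-22, Bcl2l14 ranged from -0.0075 to 0.12. With both, Mcl1 ranged from -0.035 to 0.043, Bcl2l14 from -0.024 to 0.11, Bax from -0.023 to 0.10 and Bid from -0.037 to 0.066.

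Same-numbered replicates were not treated as pairs: over 18 pairs their correlations lay between -0.19 and 0.18, and 2 libraries correlated best with their own number. A replicate block gave 6, 4 and 4 calls among the 10 genes with IL-22, with both and with both against IL-1b. Among the other pathway genes it gave 11, 12 and 9, and over all 13987 genes 2819, 3456 and 3345. It ended the calls of Birc5 with both against IL-1b (adjusted p = 0.0672) and Trp53 with both (0.0522). Further calls of named pathway genes ended elsewhere, by adjusted p: in DESeq2 Bcl2a1d with both against IL-1b (0.0906), and with total counts as the only scaling Birc3 with IL-22 (0.130) and Birc5 (0.0748). With the density trend removed Bnip3 (0.0507) and Birc3 (0.0932) with IL-22 were lost, and with only the 6 libraries compared Birc3 with IL-22 (0.0803). Without the first libraries of unstimulated and IL-1b, the lost calls of these pathway genes were Bnip3 (0.0653) and Birc3 (0.183) with IL-22. Birc5 (0.142) and Trib3 (0.0703) with both against IL-1b, and Trp53 with both (0.0903), were lost there too.

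Depth limits Bcl2l15 without IL-22 (14 to 34 counts a library), Bcl2 (12 to 60 counts), Bik (8 to 20 counts) and Bcl2a1d (1 to 13 counts). Counts per gene do not tell splice forms apart, and transcript levels say nothing of protein or of cell death.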
